A study of Mus musculus with 6 samples.

Results

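The S100 proteins are a family of small calcium-binding proteins, and 8 of their mouse genes (S100a1, S100a4, S100a6, S100a8, S100a9, S100a10, S100a11 and S100a13) are described here. Members were all non-control probes whose deposited gene name is one of these 8, which gave 10 of 39429 probes and 8 of 28312 named genes; all 8 passed the filter on dim probes, as did 16365 genes in all. RNA levels were read on single-colour microarrays, 1 per sample. Sorted myeloid cells of infarcted left ventricles gave 3 samples (heart 1, 2 and 4), and those of spleens gave another 3 (spleen 1, 2 and 4). The mice were wild-type animals of the strain C57BL/6N, all taken on day 3 of an acute myocardial infarction, and no array of uninjured animals was analysed here. Per the labels' protocols, cells of both organs were sorted for high CD45, a leukocyte marker, and high CD11b, a myeloid marker. The sort also required low staining for CD45R/B220, CD90.2, NK-1.1, CD49b and Ly6G, antigens of lymphocytes, natural killer cells and neutrophils. Each array received cRNA amplified in a single round from 10 ng of RNA and coupled to a fluorescent dye. The labels say that ventricles and spleens were analysed individually.

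S100 proteins carry a pair of EF-hand loops that bind calcium and, on binding it, most of them open a surface that grips partner proteins. S100A8 and S100A9 pair to form calprotectin, a very abundant cytosolic protein of neutrophils that monocytes also make and that macrophages make less of as they mature. Once released, the pair binds zinc and manganese and can signal through TLR4 and the receptor RAGE, the product of Ager. In the infarcted heart, neutrophils and monocytes from blood, marrow and spleen are the main known carriers of both proteins in the first days.

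The members lie on mouse chromosome 3, where S100a1, S100a13, S100a4, S100a6, S100a8 and S100a9 span 184.7 kb and S100a11 and S100a10 span 44.15 kb, after a gap of 2825 kb, in the RefSeq annotation of build GRCm38.p6. S100a1 and S100a13 start head to head on opposite strands and their annotated genes share 98 bases. Each member was read by 60-base probes, and related genes can share signal where such probes are alike. The probes that represent S100a4 and S100a6, at chr3:90409734-90409793 and chr3:90418160-90418219 on the plus strand of mm9, share 11 bases in 1 run, the longest run among the 28 pairs of members (median 6). They are shown, with the shared run in capitals, beside the probe of S100a8 at chr3:90473778-90473837 on the plus strand, all 5′ to 3′.
S100a4: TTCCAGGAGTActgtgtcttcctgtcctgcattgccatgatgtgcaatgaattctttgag
S100a6: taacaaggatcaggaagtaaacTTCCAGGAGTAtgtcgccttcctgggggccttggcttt
S100a8: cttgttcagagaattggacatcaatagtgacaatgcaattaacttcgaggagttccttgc

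Because S100a8 and S100a9 were the members that differed between the organs, the 250 bases before their annotated starts are shown as well, from RefSeq in build GRCm38.p6, 5′ to 3′ in the direction of the gene. The S100a8 stretch is chr3:90668821-90669070 on the plus strand and the S100a9 stretch is chr3:90695722-90695971 on the minus strand. Capitals mark TATAAA, the TATA box letters, and TTNNGNAA, the core letters bound by C/EBP factors, which drive granulocyte and monocyte genes. Both were searched on both strands of the 300 bases that run 50 bases past the start. The 2 TTNNGNAA matches of S100a9 lie on the strand opposite to the one shown, so their capitals are the reverse complement of a match.
S100a8: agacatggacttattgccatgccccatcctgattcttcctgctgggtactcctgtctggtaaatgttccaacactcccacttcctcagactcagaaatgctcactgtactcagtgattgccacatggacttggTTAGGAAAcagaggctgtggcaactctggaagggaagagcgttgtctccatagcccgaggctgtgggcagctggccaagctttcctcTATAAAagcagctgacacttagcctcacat
S100a9: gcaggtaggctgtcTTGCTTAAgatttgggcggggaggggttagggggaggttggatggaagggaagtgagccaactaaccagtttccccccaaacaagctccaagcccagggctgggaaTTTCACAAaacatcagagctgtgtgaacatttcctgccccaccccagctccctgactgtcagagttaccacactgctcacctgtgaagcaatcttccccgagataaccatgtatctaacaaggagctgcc

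In S100a8 the TATAAA letters begin at position −30 from the start, and in S100a9 they begin at the annotated start itself, just past the stretch shown. S100a4 has them at −31, so that 3 of the 7 members in the promoter table hold TATAAA, against 13.6% of all 32851 windows of this length. TTNNGNAA occurs in S100a8 (1 match) and S100a9 (2 matches) and in no other member of that table, against 40.7% of all windows. These matches describe letters only.

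On all arrays, 52.8% to 63.6% of probes were well above background and 0 spots were saturated, but the S100a4, S100a6, S100a8 and S100a9 probes gave some of the brightest signals, and brightness near the top of the scale may compress differences. Levels are given as log2 of the processed signal relative to the 75th percentile of the same array, so that 0 is that percentile and 1 unit is a factor of 2. Spleen arrays varied more among themselves: the median SD per gene was 0.14 in heart and 0.41 in spleen. Spleen 1 stood apart by its lymphocyte transcripts, with a summed level of 119 for 6 lymphocyte markers (in multiples of the 75th percentile), against 5.22 and 4.56 in the other spleen samples and 1.39 to 2.05 in the hearts. The sort markers Ptprc (CD45; −0.11 ± 0.16 SE, limma adjusted p = 0.695) and Itgam (CD11b; 0.04 ± 0.22 SE, limma adjusted p = 0.916) were well above background on all arrays in both organs. They had the lowest differences in a list of 8 sort and identity markers, which reached 5.49 (Cd14). The median of that list was 0.86, beside 0.11 for all tested genes. Of the 8, 1 was higher in heart at a limma adjusted p under 0.05 and 0 were lower, beside 9.07% and 6.4% of all tested genes. Without spleen 4 the list had 4 higher.

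S100a8 and S100a9 were much lower in the heart myeloid cells than in those of the spleen, and none of the other 6 members passed the test in either direction. A gene was called at a limma adjusted p under 0.05 over all 16365 tested genes, and by that rule 15.5% of all genes were called, 6.4% lower in heart and 9.07% higher. Against that background 2 of the 8 members were lower and 0 were higher. The members' median difference was 0.36, beside 0.11 for all tested genes.

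**Figure D1:**
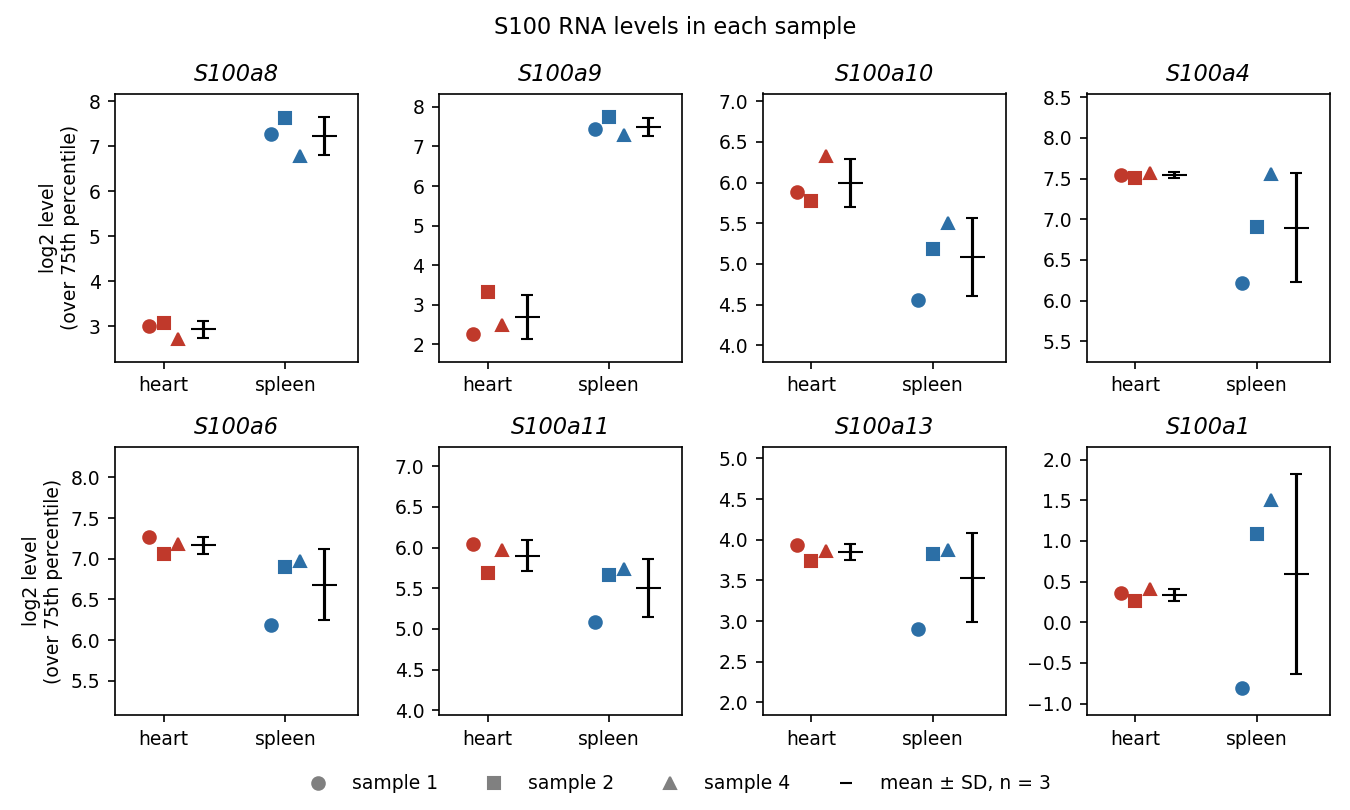
RNA levels of the 8 S100 genes in each sample, as log2 of the processed signal over the array's 75th percentile, heart at left and spleen at right of each panel; symbols give the sample number and black marks the mean ± SD (n = 3). For S100a8 and S100a9 the highest heart value is 3.32 and the lowest spleen value 6.79, and spleen 1 is the lowest sample for each of the other 6 genes; the vertical axes differ between panels.

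S100a8 had levels of 3.00, 3.08 and 2.73 in heart 1, 2 and 4, against 7.29, 7.63 and 6.79 in spleen 1, 2 and 4. The lowest spleen sample lay far above the highest heart sample. The mean was 2.94 ± 0.18 in heart and 7.24 ± 0.42 in spleen (SD, n = 3 each), a difference of −4.30 ± 0.26 (SE, limma adjusted p = 0.000726). In linear terms S100a8 was 19.7-fold lower in heart (95% confidence interval 12.8 to 30.2).

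S100a9, the partner of S100a8 in calprotectin, had levels of 2.27, 3.32 and 2.50 in heart 1, 2 and 4, against 7.44, 7.75 and 7.30 in spleen 1, 2 and 4. Heart 2 was the highest of the hearts for both genes, and again no heart sample came near a spleen sample. The mean was 2.70 ± 0.55 in heart and 7.50 ± 0.23 in spleen (SD, n = 3 each), a difference of −4.80 ± 0.31 (SE, limma adjusted p = 0.000876). This is 27.8-fold lower in heart (95% confidence interval 16.6 to 46.7).

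The transcripts were not lost in the heart. Both genes were well above background on all 3 heart arrays, where the S100a8 probe gave 12791, 12971 and 11755 intensity units and the S100a9 probe 7720, 15332 and 10010. In spleen the S100a8 probe gave 309235, 331714 and 197699 units, and the S100a9 probe 344446, 359949 and 280316. The heart signals ranked between the percentiles 87.6 and 92.3 of their arrays, and the spleen signals at 99.5 or higher, so the fold values may understate the difference. In a bulk sample, fewer cells that carry a transcript and less of it per cell cannot be told apart.

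The difference between the organs was larger for S100a9 than for S100a8 by −0.50, with p = 0.3 in an exact two-sided permutation test over the samples, where 3 against 3 samples allow no p below 0.1. Leaving out each sample in turn kept the S100a8 difference between −4.52 and −4.10 and the S100a9 difference between −5.11 and −4.59. The 6 arrays lay on 3 slides, of which 1 held both organs (heart 1 and spleen 4), and there the differences were −3.79 for S100a8 and −5.02 for S100a9. With slide as a block the difference of a gene is that of this single pair, so it is no separate check. In that fit both kept a limma adjusted p of 0.046, with the spread taken from the other arrays too. The sample titles carry 2 dates of unstated meaning. Within the earlier of them the differences were −4.42 and −4.80 for S100a8 and S100a9 (adjusted p = 0.0112 and 0.0163), and in the single pair of the later date −4.06 and −4.80.

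**Figure D2:**
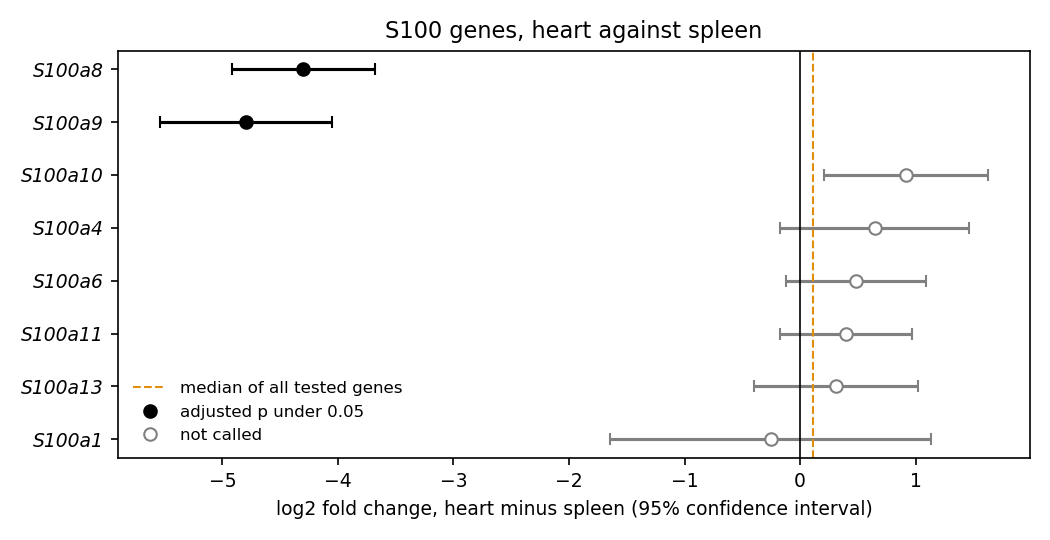
Log2 fold change of each S100 gene, heart minus spleen, with its 95% confidence interval from limma; the dashed line is the median of all tested genes (0.11). S100a8 (−4.30) and S100a9 (−4.80) are far left of 0, and the 6 other genes lie between −0.25 and 0.92.

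Neutrophil genes were lower in heart together with this pair. Of 20 neutrophil and granulocyte precursor markers, 19 had a probe and were tested. Among these 13 were lower in heart and 0 higher, beside 6.4% and 9.07% of all tested genes. The median difference of the 19 was −3.97, beside 0.11 for all genes. Ly6g, which encodes the antigen gated against, had no probe. The count of lower genes was 17 without spleen 4, 9 without spleen 1, 6, 7 and 6 without heart 1, 2 and 4, and 2 with slide as a block.

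Ngp, a granule protein gene, was lower in heart (−10.11 ± 0.83 SE, limma adjusted p = 0.00188; −9.82 with the heart arrays that were not well above background held at their floor, as only 1 of 3 was above it). The lactoferrin gene Ltf differed by −9.03 ± 0.64 (SE, limma adjusted p = 0.00109), and Camp, for the antimicrobial peptide cathelicidin, by −8.45 ± 0.86 (SE, limma adjusted p = 0.00344; 0.067 with slide as a block). Itgb2l, an integrin subunit gene, was not well above background in any heart sample and was at least 104-fold lower there (limma adjusted p = 0.00311; 0.0654 with slide as a block). These are genes of secondary granules and of late granulocyte maturation.

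Primary granules, which form earlier in granulocyte development, hold myeloperoxidase and elastase. Mpo, for myeloperoxidase, was lower by −5.72 ± 1.29 (SE, limma adjusted p = 0.0324), a call that was lost without spleen 1 (0.0726), without spleen 2 (0.0644) and without any single heart sample (0.0954 to 0.119). With slide as a block the Mpo difference was −2.97 and was not called either (adjusted p = 0.223). Elane, for neutrophil elastase, had a difference of −1.49 ± 0.79 (SE, limma adjusted p = 0.254). Ctsg and Prtn3, also primary granule genes of the list, were called lower in heart. Their differences were −5.54 ± 1.20 and −2.84 ± 0.64 (SE, limma adjusted p = 0.0293 and 0.0327). The brightest marker of the list that was not called was Csf3r, the receptor gene for G-CSF, at −0.05 ± 0.20 (SE, limma adjusted p = 0.886).

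The summed level of the 19 neutrophil markers was 69.2, 72.7 and 67.5 in heart 1, 2 and 4, against 615, 1149 and 329 in spleen 1, 2 and 4. Csf3r alone made up 64% to 68.4% of that sum in heart and 5.03% to 12.4% in spleen. Without it the sum was 23.5, 23 and 24.2 in heart 1, 2 and 4, against 569, 1091 and 288 in spleen 1, 2 and 4. Spleen 2 was highest and spleen 4 lowest, the same order as for S100a8 and S100a9. The part of these cells in the S100a8 and S100a9 differences was not tested.

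**Figure D3:**
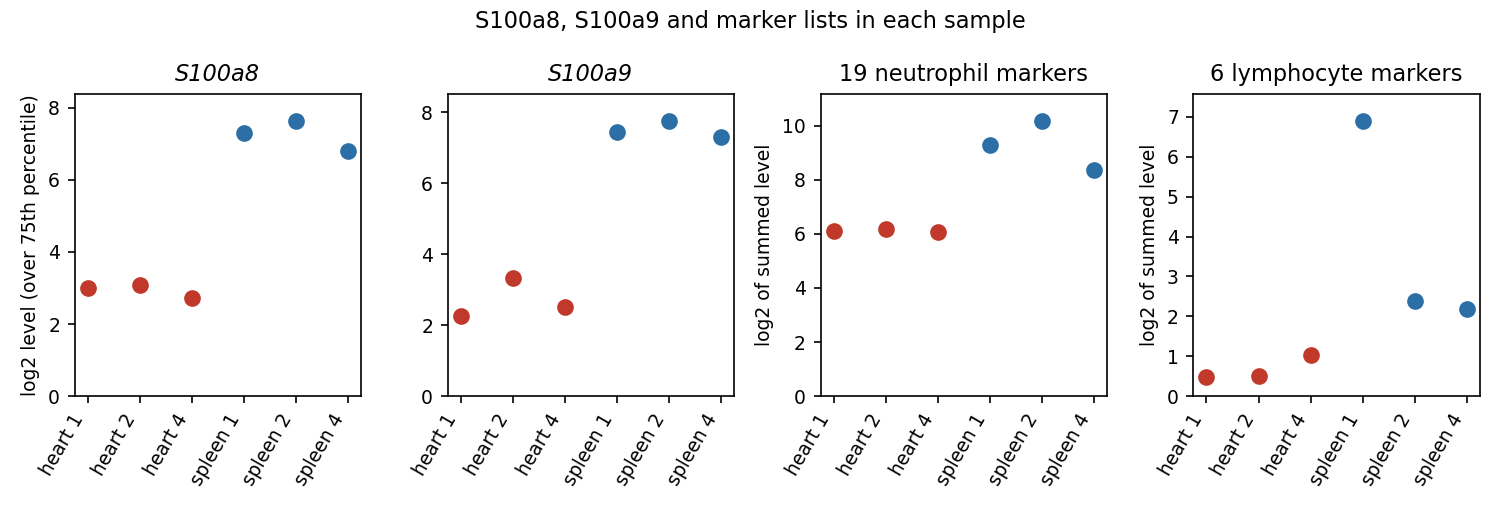
Levels of S100a8 and S100a9 (log2 over the array's 75th percentile) and log2 of the summed levels of 19 neutrophil and 6 lymphocyte markers in the 3 heart (left, red) and 3 spleen (right, blue) samples. S100a8, S100a9 and the neutrophil sum are highest in spleen 2, and the lymphocyte sum is highest in spleen 1.

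S100a10, S100a4, S100a6 and S100a11 had higher means in heart, but none of them was called. S100a10 encodes p11, which pairs with annexin A2 at membranes and no longer binds calcium. Its levels were 5.89, 5.77 and 6.33 in heart 1, 2 and 4, against 4.56, 5.18 and 5.50 in spleen 1, 2 and 4. The groups did not overlap, as was so for 4 of the 8 members (2 higher and 2 lower in heart) and for 41.1% of all tested genes (24.8% higher and 16.3% lower). The difference was 0.92 ± 0.30 (SE; unadjusted p = 0.0193, limma adjusted p = 0.088), and of the alternatives run, it was called only without spleen 4, at 1.13 with an adjusted p of 0.038.

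S100a4, also known as metastasin, binds nonmuscle myosin and is carried by macrophages and fibroblasts. Its brightest probe had levels of 7.55, 7.50 and 7.57 in heart 1, 2 and 4, against 6.22, 6.91 and 7.56 in spleen 1, 2 and 4. Spleen 4 lay within the range of the hearts, which hardly differed among themselves. The difference was 0.64 ± 0.34 (SE, limma adjusted p = 0.249), and a second probe gave 0.62 ± 0.33 (SE). Without spleen 4 it was 0.98 with an adjusted p of 0.038, while on the slide that held both organs it was −0.011. All 6 signals of the brightest probe ranked at or above the 98.9 percentile of their arrays.

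S100a6, for calcyclin, had levels of 7.27, 7.05 and 7.18 in heart 1, 2 and 4, against 6.18, 6.89 and 6.97 in spleen 1, 2 and 4. The groups did not overlap, but the gap between heart 2 and spleen 4 was small. The difference was 0.48 ± 0.25 (SE, limma adjusted p = 0.245).

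S100a11, a partner of annexin A1, had levels of 6.05, 5.68 and 5.96 in heart 1, 2 and 4, against 5.09, 5.66 and 5.74 in spleen 1, 2 and 4. The groups overlapped, since heart 2 lay below spleen 4. The difference was 0.40 ± 0.24 (SE, limma adjusted p = 0.3).

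S100a13 takes part in the release of the leaderless proteins FGF1 and IL-1α from cells. Its levels were 3.94, 3.74 and 3.86 in heart 1, 2 and 4, against 2.90, 3.82 and 3.88 in spleen 1, 2 and 4, so that only spleen 1 stood below the hearts. The difference was 0.31 ± 0.29 (SE, limma adjusted p = 0.517), with a 95% confidence interval of −0.39 to 1.02. Without spleen 1 it was −0.0033.

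S100a1, best known from cardiomyocytes, where its protein acts on the ryanodine receptor and the SERCA2 calcium pump, gave the widest spread. Its brightest probe had levels of 0.35, 0.26 and 0.40 in heart 1, 2 and 4, against −0.81, 1.08 and 1.497 in spleen 1, 2 and 4. The hearts lay between spleen 1 and the other spleen samples. The difference was −0.25 ± 0.58 (SE, limma adjusted p = 0.802), and a second probe gave −0.16 ± 0.44 (SE). Without spleen 1 it was −0.95, with an adjusted p of 0.0289, and without spleen 4 it was 0.20.

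For each of the 6 members that were not called, spleen 1 had the lowest level of all 6 samples. That sample also held the most lymphocyte RNA (above): the T cell gene Cd3e had levels of 2.11 in spleen 1, −0.70 in spleen 2 and −0.86 in spleen 4. It was not called between the organs (−0.93 ± 0.77 SE, limma adjusted p = 0.457). The part of lymphocytes in the low S100 levels of spleen 1 was not tested. The SD among hearts was below that among spleen samples for 7 of the 8 members, beside 84.3% of all genes, the exception being S100a9 (0.55 in heart, 0.23 in spleen).

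Some markers of heart tissue cells were also higher in the heart samples. Of 12 listed fibroblast markers 7 were tested. Among these 6 were higher in heart and 0 lower, beside 9.07% and 6.4% of all tested genes. The count was 4 to 6 when any 1 sample was left out and 2 with slide as a block. Most of the called genes passed the filter on dim probes through the heart arrays only, which favours calls higher in heart. Among probes well above background on all 6 arrays 1 of 2 tested markers was higher, and without the filter 6 of 12. The summed level of the 7 tested markers was 29.3 to 33.5 in heart against 11.3 to 24.7 in spleen. Gsn, a gelsolin gene that myeloid cells also use and that was not called, made up 69% to 76.4% of that sum in heart and 98.7% to 99.5% in spleen. Without Gsn the sum was 7.92 to 9.15 in heart against 0.108 to 0.191 in spleen. In every heart sample Pdpn was the brightest gene left in that sum, at log2 levels of 2.77, 1.71 and 2.61 in heart 1, 2 and 4. Which cells carried Pdpn was not tested. Pdpn, for podoplanin, differed most (8.69 ± 0.64 SE, limma adjusted p = 0.00129; 7.75 with dim spleen arrays at their floor, as only 1 of 3 was above it), and the collagen gene Col1a1 differed by 3.92 ± 0.74 (SE, limma adjusted p = 0.0204; 0.0647 to 0.0751 without any single heart sample and 0.144 with slide as a block). Background was clearly exceeded by Col1a1 and Myh6 in 2 of 3 spleen samples. Pdgfra and Tcf21 were not clearly above background in any sample.

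Of 16 listed cardiomyocyte markers 11 were tested. Among these 4 were higher in heart and 0 lower, beside 9.07% and 6.4% of all tested genes, and 7 were not called. The lowest difference was −0.12. The count of higher genes was 1 to 3 when any 1 sample was left out and 0 with slide as a block. Most of the called genes passed the filter through the heart arrays only, as above. Among probes well above background on all 6 arrays 1 of 5 tested markers was higher, and without the filter 2 of 16. The summed level of the 11 tested markers was 1.26 to 1.96 in heart against 0.66 to 0.92 in spleen. The cardiac actin gene Actc1 was not well above background in spleen and at least 4.79-fold higher in heart (limma adjusted p = 0.00643; 0.092 with slide as a block). Myh6, for the atrial type of cardiac myosin, differed by 1.51 ± 0.44 (SE, limma adjusted p = 0.0671). Ttn and Pln were not clearly above background in any sample. The part of these cells in the levels of S100a1, S100a4, S100a6, S100a10 and S100a11 was not tested.

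Among genes of S100A8 and S100A9 reception and signalling, Cd14, Alcam and Tlr4 were higher in heart. Of 11 listed genes 10 were tested, and these 3 were higher in heart and 0 lower, beside 9.07% and 6.4% of all tested genes. The median difference of the 10 was 1.26, beside 0.11 for all genes. Cd14, the co-receptor gene, had levels of 7.32, 7.38 and 7.39 in heart 1, 2 and 4, against 1.09, 1.72 and 2.81 in spleen 1, 2 and 4. It differed by 5.49 ± 0.42 (SE, limma adjusted p = 0.00156), opposite in direction to S100a8 and S100a9 in the same samples.

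Tlr4 had levels of 1.38, 1.11 and 0.74 in heart 1, 2 and 4, against −0.73, −0.42 and −0.22 in spleen 1, 2 and 4. The groups did not overlap, and the difference was 1.53 ± 0.24 (SE, limma adjusted p = 0.0128). The call was lost without heart 1 (adjusted p = 0.0681) or heart 2 (0.0688) and with slide as a block (0.154). Alcam, for a cell adhesion molecule, differed by 2.01 ± 0.19 (SE, limma adjusted p = 0.0029; 0.114 with slide as a block).

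Ager, for RAGE, was not well above background on any of the 6 arrays, so it was not compared. The brightest gene of this list that was not called was Myd88, the adaptor downstream of TLR4 (0.50 ± 0.32 SE, limma adjusted p = 0.33). Without any 1 sample, 2 to 5 genes of the list were called higher.

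**Figure D4:**
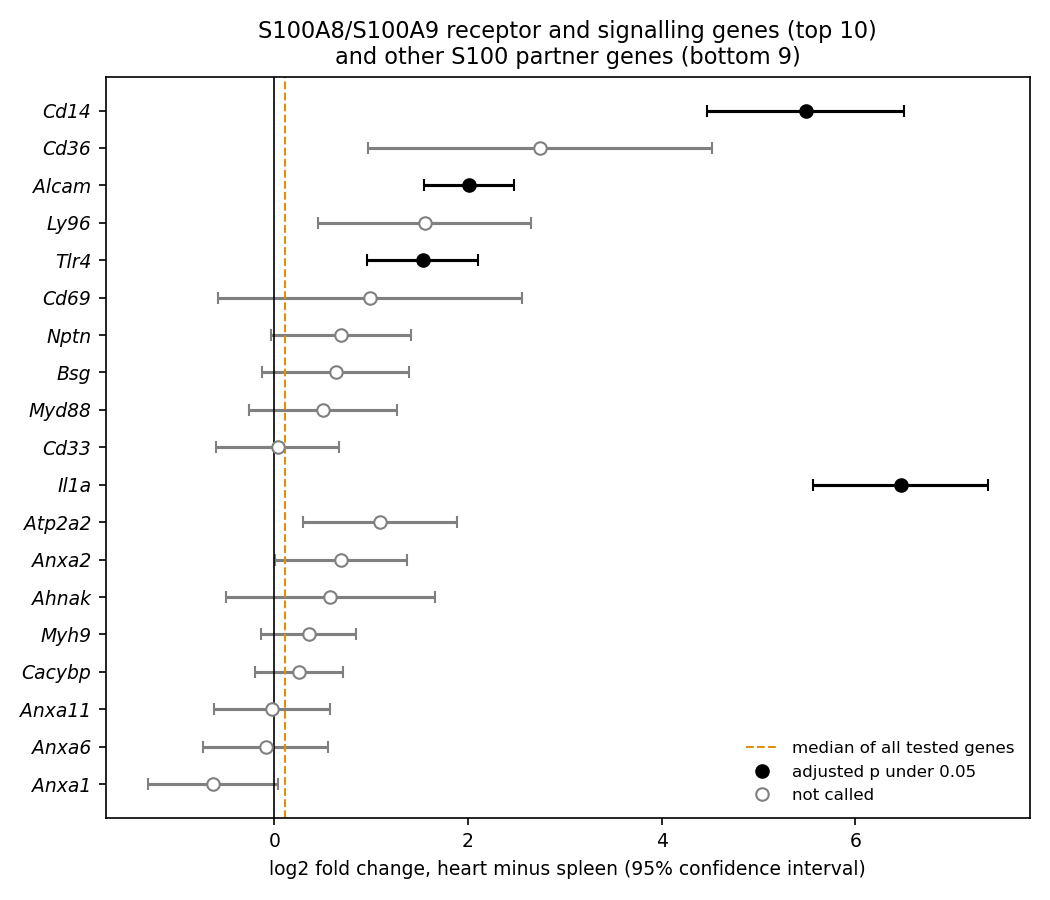
Log2 fold change, heart minus spleen, with 95% confidence interval, of 10 tested receptor and signalling genes (top) and 9 tested partner genes of S100 proteins (bottom); filled points passed an adjusted p of 0.05. Cd14, Alcam, Tlr4 and Il1a are the filled points, all right of 0; the Il1a point is the fitted value, while only a bound of at least 25.1-fold can be given for it.

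Among genes for intracellular partners of S100 proteins, Il1a was higher in heart and no other was called. Of 12 listed partner genes 9 were tested, and 1 was higher in heart and 0 lower, beside 9.07% and 6.4% of all tested genes. Their median difference was 0.35, and 5 did not overlap between the organs, beside 41.1% of all tested genes. These counts are near those shares. The 1 called gene was Il1a, for IL-1α, whose release S100A13 assists: it had levels of −1.08, −1.39 and −0.19 in heart 1, 2 and 4 and was not well above background in any spleen sample. It was at least 25.1-fold higher in heart (limma adjusted p = 0.000658; 0.0553 with slide as a block). S100a13 itself was not called.

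Anxa2, the partner gene of S100a10, had a difference of 0.69 ± 0.28 (SE, limma adjusted p = 0.151), and no heart sample was below a spleen sample: 6.63, 6.46 and 6.87 in heart 1, 2 and 4, against 5.41, 6.14 and 6.33 in spleen 1, 2 and 4. Anxa1, the partner gene of S100a11 and the brightest of the list that was not called, had a difference of −0.63 ± 0.28 (SE, limma adjusted p = 0.176). Fgf1, Syt1 and Ryr2 did not pass the filter on dim probes.

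Few other S100 genes were measurable in these cells. Of 8 further family members, S100a7a, S100a14, S100b, S100g and S100z were not clearly above background in any sample. S100a3 and S100a5 were measured and had differences of −0.23 ± 0.34 and −0.08 ± 0.21 (SE; limma adjusted p = 0.68 and 0.823). None of the 3 tested was called.

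S100a16 came closest. Its brightest probe had levels of 1.05, 1.15 and 1.05 in heart 1, 2 and 4, against 3.71, 5.33 and 2.22 in spleen 1, 2 and 4. The groups did not overlap, and spleen 2 was highest and spleen 4 lowest, as for S100a8 and S100a9. The difference was −2.67 ± 0.72 (SE, limma adjusted p = 0.0542). It was called in 8 of 21 alternative settings, with adjusted p from 0.00674 (without spleen 4) to 0.686, and was not called without any single heart sample (0.153 to 0.163). The mean of its tested probes gave −0.32, the setting with the highest p, so the probes disagree.

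A search across all 16303 other genes with a value on every array named, for each member, the genes whose profile over the 6 samples was most alike after centring. The measure was the root mean square difference in log2 units. S100a8 was nearest to Slc25a29 (0.27), then S100a9 (0.39) and 9830107B12Rik (0.40). S100a9 was nearest to S100a8 (0.39), then Slc25a29 (0.58) and Cbx2 (0.60). Slc25a29, 9830107B12Rik and Cbx2 were not well above background in any heart sample, so their heart levels are only bounds and S100a8 and S100a9 were each other's nearest gene among those named that were measured in both organs.

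The nearest genes of the other members lay closer, at 0.027 to 0.11. This measure depends on how much a gene varies over the samples, and these members varied less than S100a8 and S100a9. Pearson correlations with the 3 nearest genes were 0.977 to 0.993 for S100a8 and S100a9. For the other members they were 0.983 to 0.9996. S100a4 was nearest to Ddi2 (0.046), Atp6ap1 (0.048) and Pi4k2a (0.05). S100a6 was nearest to Hras (0.031), Xbp1 (0.036) and Ndufb8 (0.036), and S100a11 to Atp5l (0.027), Uba1 (0.035) and Ino80c (0.045). S100a10 was nearest to Cfp (0.078), the properdin gene, then Vim (0.092), for vimentin, and Sbno2 (0.094). S100a13 was nearest to 4930529I22Rik (0.048), Atg7 (0.055) and Gm5048 (0.058), and S100a1 to Fkbp1b (0.11), Madcam1 (0.13) and Rbks (0.16).

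Under other scaling, filters, blocks and samples, S100a8 and S100a9 lay well below the other members in every setting that gave them a value. The calls of other members were less steady, as S100a10, S100a4 and S100a1 were each called in 1 setting.

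**Figure D5:**
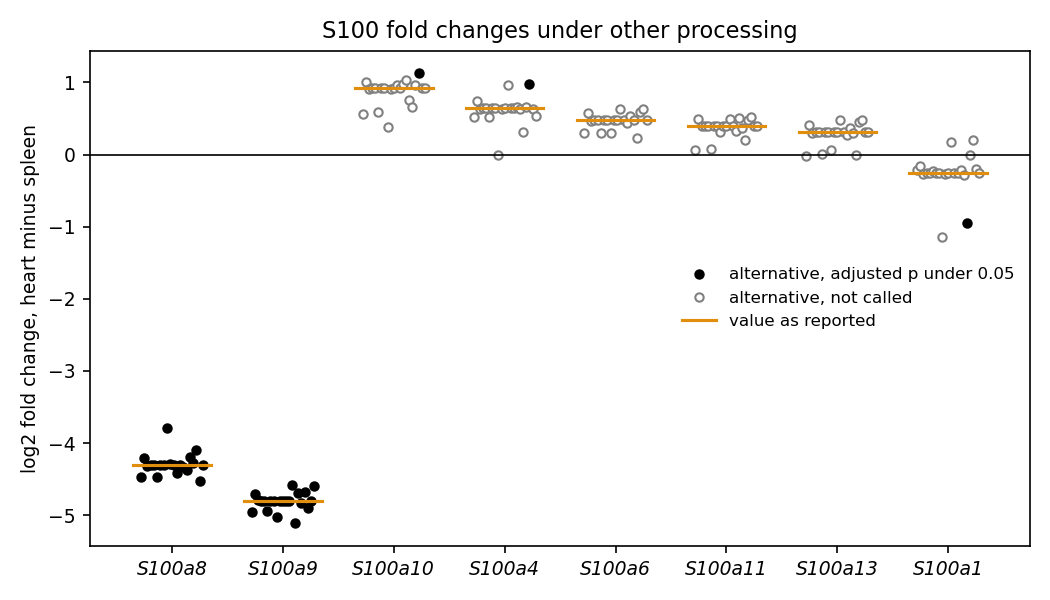
Log2 fold change of each S100 gene, heart minus spleen, under each of up to 21 alternative settings (points, spread sideways for sight; filled where the adjusted p is under 0.05) and as reported (orange line). The S100a8 points lie between −4.52 and −3.79 and the S100a9 points between −5.11 and −4.59, all filled; S100a10, S100a4 and S100a1 have 1 filled point each.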

How the data were processed

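The authors' deposited scanner files hold 1 intensity per spot on a linear scale, from Agilent Feature Extraction 10.7.3.1, per the submitters' processing notes; the processed signal is background-corrected, per the file headers. The deposited value table holds log2 values whose differences between arrays followed those of quantile-normalized signals (r 0.992 to 0.999, slope 0.949 to 0.989). Its column medians are 0 and its baseline per probe is unknown, so it served as an alternative.

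Signals were scaled to each array's 75th percentile, in log2. Control spots and spots with feature outlier marks were left out. Spots marked for local background were kept, a choice made after the files were seen, because 43.3% to 55.4% of spots over 150000 units carry that mark, against 2.77% to 3.78% of all spots. Probes well above background on all 3 arrays of an organ were tested (21801 probes), and the brightest probe stands for a gene. Names came from RefSeq for 26412 probes and otherwise from the files (35777 named in all). Heart was compared with spleen by limma (version 3.58.1, under R 4.3.3), with lmFit and two-sided eBayes tests and Benjamini-Hochberg adjustment over 16365 genes. A gene below the background criterion on all arrays of an organ gets a bound against the lowest level well above background on each array, or its own if higher. The fit was tried on simulated data with the same spread in both organs. That trial did not cover the larger spread seen among the spleen samples. Other tools were data.table (version 1.17.8), Python 3.11.15, scipy 1.17.1, numpy 2.4.6 and matplotlib 3.10.9.

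The named genes are all members; the 3 most changed called genes and the brightest uncalled gene of the neutrophil, partner, receptor and other S100 lists; the most changed called fibroblast and cardiomyocyte gene; preset defining markers (1 of them is not reported here) with Ager, Tlr4, Anxa1 and Anxa2; and the 3 genes most like each member. Pdgfra, Tcf21, Ttn, Pln, Fgf1, Syt1, Ryr2 and the dim S100 genes are named besides for being below the filter, and Gsn, picked after its values were seen, for its share of a marker sum. Ctsg and Prtn3 were also picked after their values were seen. The members and lists were chosen with earlier results of these data known. Replicates are separate samples per the labels; whether equal numbers are 1 animal is not given, and no pairing was used.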

Additional observations from a re-analysis of the deposited data

How the results depend on the processing

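The direction and the call of S100a8 and S100a9 held in all alternatives that gave a value: the differences ranged from −4.52 to −3.79 with adjusted p of 0.000146 to 0.046 for S100a8 (20 settings), and from −5.11 to −4.59 with 0.00025 to 0.046 for S100a9 (21 settings). The number of S100 genes called higher was 0 throughout, except without spleen 4, when it was 2 (S100a10 and S100a4; range 0 to 2 over samples left out). The number called lower was 2 throughout, except without spleen 1, when it was 3 (S100a1 added; range 2 to 3). With spots marked for local background left out, an alternative chosen after seeing the data, it was 1: S100a8 then had 0 spleen values, S100a6 had 0 heart values, and S100a9 rested on 1 spleen value (−4.60, adjusted p = 0.0124).

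Differences that were not called changed sign in 5 cases. S100a1 was 0.17 within the earlier date and 0.20 without spleen 4 (−0.95 to 0.20 over samples left out). S100a13 was −0.016 under quantile scaling and −0.0033 without spleen 1 (−0.0033 to 0.485 over samples left out). S100a4 was −0.011 with slide as a fixed block. The cause was not tested.

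Over all genes, 2532 were called in the fit reported, 92 with slide as a fixed block, 432 to 496 without 1 heart sample and 1533 with the replicate number as a block. Neutrophil markers called lower numbered 2 with slide as a fixed block and 8 without the filter on dim probes. Same-numbered samples did not deviate together (correlations −0.053, 0.04 and 0.0091), which cannot show whether they came from 1 animal. The numbers were not taken as pairs because the labels do not give a pairing. With the replicate block S100a8 and S100a9 kept their calls (adjusted p = 0.00468 and 0.00456), and 0 members were called higher and 2 lower. Of the receptor genes, Tlr4 was not called without heart 1 or 2 or with slide as a fixed block. With 3 samples per organ, small differences such as those of S100a6 and S100a11 have wide intervals.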

Other observations

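The lists also held markers of monocytes, which the sort should retain. Of 10 such genes, all tested, 1 was called higher in heart and 0 lower, near the 9.07% and 6.4% of all tested genes. Their median difference was 0.33. Without spleen 4 the counts were 4 higher and 0 lower, without spleen 1 they were 2 higher and 1 lower, and with slide as a block 0 genes were called. The called gene was Nr4a1, for a nuclear receptor of patrolling monocytes that is also an immediate early gene; it was picked here after its values were seen (2.12 ± 0.24 SE, limma adjusted p = 0.00446). The summed level of the list was 342 to 352 in heart and 167 to 376 in spleen, where spleen 1 was again the lowest sample.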
